A study of Homo sapiens with 10 samples.

Results

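The solute carrier (SLC) genes form the largest group of membrane transport proteins that work without hydrolysing ATP. They move amino acids, sugars, nucleosides, vitamins, inorganic ions and metals across the cell surface and across the membranes of organelles, and a growing lymphoma cell depends on them for nutrients. Here the group was taken as every probe set whose platform annotation names a single gene with a symbol that starts with SLC and a digit, without the mitochondrial SLC25A carriers and without SLC7A5, SLC3A2, SLC1A4, SLC1A5, SLC7A1, SLC2A3 and SLC19A1, and with a mean log2 value of 2.5 or more over all 10 arrays. This left 30 probe sets for 30 genes, out of 150 such SLC probe sets for 124 genes and 12558 probe sets on the array without controls.

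The cells were ST486, a human Burkitt's lymphoma line, 60 h after transduction with a lentivirus. In 5 arrays the virus carried one short hairpin RNA (shRNA) against STK38, a serine/threonine kinase of the NDR family, and in the other 5 a non-target control shRNA, so both groups had been transduced and had expressed a hairpin. The study was about STK38 as a regulator of what MYC transcribes. Expression was measured on Affymetrix HG-U95Av2 arrays and deposited as 1 log2 value per probe set. With 1 hairpin named, loss of STK38 and any other action of the hairpin cannot be told apart, and with bulk RNA fewer cells of a type and less RNA per cell cannot be told apart. The labels do not say whether replicates were separate cultures, so the p-values cover array-to-array spread, part or all of which may be technical.

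STK38 itself was lower with its shRNA at all 3 of its probe sets, by 0.82 to 2.19 on the log2 scale. Of the B cell markers, MS4A1, CD79A, CD79B, CD22, CD38 and MME were above array background on all 10 arrays, BCL6 was above it on 3 of 5 STK38 shRNA arrays and 5 of 5 non-target arrays, and PAX5 was above it on no array. The B cell markers themselves differed between the groups: MME (log2 difference -1.60), CD38 (-1.49) and BCL6 (-0.60) fell and CD79A (0.49) rose, and the summed log2 values of the 8 markers measured did not overlap, at 40.3 to 41.7 in STK38 shRNA arrays and 44.1 to 44.9 in non-target arrays. Background was the 90th percentile of 23 control probe sets on each array, 2.36 to 2.66. STK38 shRNA replicate 4 stood apart: its mean correlation with its group was 0.982, where the other 9 arrays had 0.992 to 0.996 with theirs. Its values as a whole were distributed differently too. Its median was the highest of all arrays, 2.25 where the others had 2.12 to 2.17. Its upper quartile was the lowest, 3.54 where the others had 3.91 to 4.02. On that array the summed log2 values of 5 T cell, 3 monocyte, 5 epithelial and 4 fibroblast markers were the highest of all arrays and that of 3 erythroid markers the lowest. Whether these marker sums follow from the different distribution of that array was not tested. The sums spanned 7.33 to 8.29 in STK38 shRNA arrays and 7.26 to 7.98 in non-target arrays for T cell markers, 5.11 to 5.68 and 4.96 to 5.65 for monocyte, 11.34 to 13.28 and 10.96 to 12.03 for epithelial, 6.51 to 7.78 and 6.79 to 7.24 for fibroblast, and 5.43 to 6.55 and 6.66 to 6.90 for erythroid markers. The T cell markers CD3D, CD3E, CD3G, CD2 and CD8A and the monocyte markers CD14, CSF1R and LYZ were above background on no array. Of the epithelial markers, KRT8 was above it on all 10 arrays and EPCAM and CDH1 on no array. KRT18 and KRT19 were above background only on STK38 shRNA replicate 4. The erythroid marker EPOR was above it on 4 of 5 STK38 shRNA arrays and 5 of 5 non-target arrays. EPOR fell (log2 difference -0.69, limma adjusted p = 0.000601), while the erythroid markers HBB and ALAS2 were above background on no array. The part of these B cell and other markers in the results was not tested, and the counts of members called are given with and without this array.

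Of the 30 solute carrier genes, 3 rose with the STK38 shRNA and 6 fell; a gene counts as called at a Benjamini-Hochberg adjusted p under 0.05 in limma over all probe sets tested. SLC30A1, SLC5A6 and SLC36A1 rose 1.72-fold to 1.90-fold, and SLC30A9, SLC39A14, SLC39A6, SLC35A1, SLC29A1 and SLC4A7 fell 1.40-fold to 1.80-fold. These 9 of 30 members stand beside 29.9% of all 7535 probe sets tested and 39.2% of the 5153 that also had a mean of 2.5 or more, so the share called equals the background over all probe sets to within 1 member and is below that of probe sets as bright. By direction, 14.1% of all probe sets tested were called higher and 15.8% lower, and 18.3% and 21.0% of those with a mean of 2.5 or more. A call with a change of 1.5-fold or more was made at 6 members, beside 13.6% of all probe sets tested and 19.1% of those with a mean of 2.5 or more. After quantile normalization of the arrays 7 members were called higher and 6 lower, 13 of 30, beside 32.0% of all probe sets tested (16.1% higher, 15.8% lower) and 42.6% of those with a mean of 2.5 or more (21.7% higher, 20.9% lower). None of the members changed by 2-fold or more, which 4.23% of all probe sets tested did with a call. The median log2 difference, STK38 shRNA minus non-target shRNA, was 0.11 over the members and 0.02 over all probe sets tested. The median size of the difference without its sign was 0.27 for the members, 0.18 for all probe sets tested and 0.26 for those with a mean of 2.5 or more.

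The rule used the mean level of each probe set, and 26 members reached 2.5 in the mean of both groups. SLC61A1, SLC26A2 and SLC35A2 reached it only in the mean of the STK38 shRNA arrays and SLC23A2 only in that of the non-target arrays, and none of these passed the test. Just inside the limit were SLC26A2 (mean over all arrays 2.52), SLC23A2 (2.53) and SLC35A2 (2.56), and just outside it SLC5A3 (2.46), SLC6A6 (2.42) and SLC11A2 (2.41). Of the members, 23 were above background on all 10 arrays. The groups did not overlap at 9 of 30 members, beside 22.1% of all probe sets tested and 29.6% of those with a mean of 2.5 or more. The group was put together as transporters of the plasma membrane, but several members are known from inner membranes: SLC35A1, SLC35A2 and SLC35A3 from the Golgi, SLC35B1, SLC37A4, SLC33A1 and SLC39A7 from the endoplasmic reticulum, and SLC30A9 from mitochondria.

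**Figure D1:**
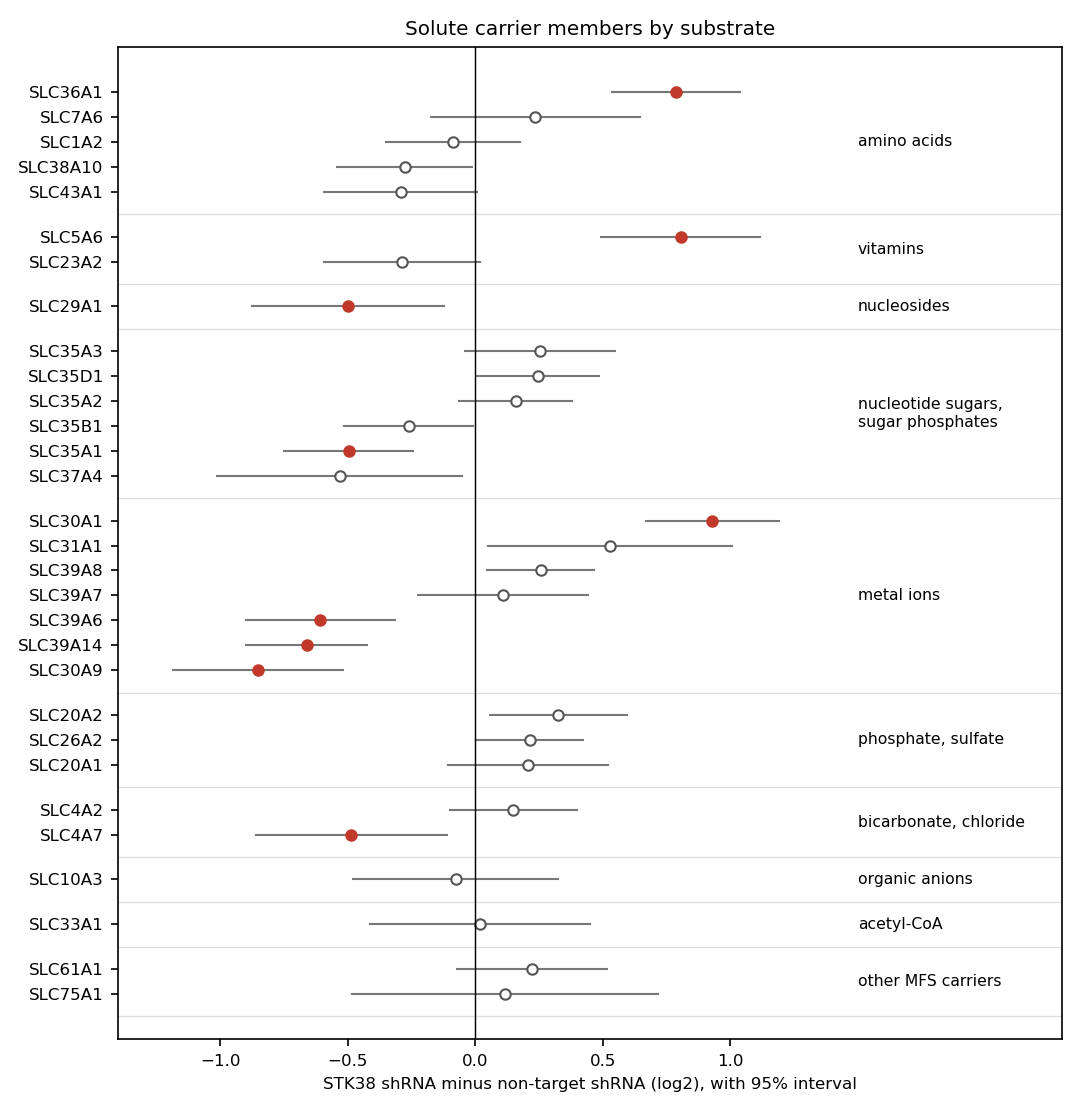
Difference between STK38 shRNA and non-target shRNA arrays (log2, horizontal axis) for the 30 solute carrier members, grouped by substrate. Points are limma estimates, bars their 95% intervals, and filled red points passed the test. The largest rise (SLC30A1, 0.93) and the largest fall (SLC30A9, -0.85) are both zinc carriers.

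Metal ion carriers held the widest spread. Of 7 members, SLC30A1 rose, SLC30A9, SLC39A14 and SLC39A6 fell, and SLC31A1, SLC39A8 and SLC39A7 did not pass the test. Most carriers of the SLC30 family take zinc out of the cytosol and those of the SLC39 family bring zinc into it. SLC30A9, which acts at mitochondria, is not read here by that rule.

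SLC30A1 (probe set 34759_at) encodes the zinc exporter of the plasma membrane. It had log2 values of 5.04, 5.02, 4.76, 4.71 and 5.01 on the STK38 shRNA arrays, against 4.02, 4.01, 3.95, 4.17 and 3.74 on the non-target arrays. Every STK38 shRNA array lay above every non-target array. The difference was 0.93 on the log2 scale (SE 0.12, adjusted p = 4.19e-05, limma), or 1.90-fold. SLC30A9 (probe set 36013_at), a member of the same family that acts at mitochondria, went the other way. It had 2.81, 3.33, 3.57, 3.01 and 3.34 with the STK38 shRNA and 3.74, 4.22, 4.16, 4.00 and 4.19 with the non-target shRNA, again with no overlap. The fall was 1.80-fold, a log2 difference of -0.85 (SE 0.16, limma adjusted p = 0.000726).

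Both importers that fell carry zinc into the cell. SLC39A14 (probe set 38797_at), which also carries manganese and iron, had 6.11, 6.12, 6.18, 5.63 and 5.95 on the STK38 shRNA arrays and 6.65, 6.67, 6.61, 6.61 and 6.75 on the non-target arrays. It fell 1.58-fold without overlap of the groups (log2 difference -0.66, SE 0.11, limma adjusted p = 0.000346). SLC39A6 (probe set 1798_at), a zinc importer of the cell surface, had 4.73, 4.73, 4.50, 5.00 and 4.76 on the STK38 shRNA arrays and 5.51, 5.16, 5.25, 5.14 and 5.71 on the non-target arrays. It fell 1.52-fold, also without overlap (log2 difference -0.61, SE 0.14, limma adjusted p = 0.00343).

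The remaining metal carriers gave smaller or less even differences. SLC39A8, a zinc and manganese importer, averaged 7.82 ± 0.18 in STK38 shRNA arrays and 7.56 ± 0.14 in non-target arrays (SD, n = 5 each), a difference of 0.26 with a 95% interval of 0.05 to 0.47 (limma adjusted p = 0.0642). SLC39A7, which releases zinc from the endoplasmic reticulum, had a difference of 0.11 (adjusted p = 0.681, limma). SLC31A1, the copper importer, had 4.52, 4.87, 4.86, 3.95 and 4.90 with the STK38 shRNA and 3.99, 4.58, 3.49, 4.50 and 3.90 with the non-target shRNA. Its groups overlapped and its difference of 0.53 did not pass the test (limma adjusted p = 0.0934). Without STK38 shRNA replicate 4, its lowest STK38 shRNA array, the difference was 0.70 with an adjusted p of 0.0059 (limma).

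Genes that bind or sense zinc and copper were read beside these carriers. Of 10 such genes tested, at the brightest probe set of each, 7 rose, where 15.2% of all genes tested were called higher and 31.0% either way. They were MT1X, MT1F, MT1H, MT1E, MT3 and MT2A, which encode metallothioneins, small cysteine-rich proteins that hold zinc and copper, and ATOX1, a copper chaperone. MT1F had 4.33, 4.41, 4.30, 4.37 and 4.26 on the STK38 shRNA arrays, against 3.40, 3.43, 3.82, 3.58 and 3.57 on the non-target arrays, a rise of 1.71-fold (log2 difference 0.77, adjusted p = 0.000133, limma). The groups did not overlap there. MT1X exceeded background on 4 arrays with the STK38 shRNA and on none with the non-target shRNA. It was 1.53-fold higher with the non-target values raised to background (limma adjusted p = 0.000579), and its lowest STK38 shRNA value, 2.27, was on replicate 4. The others had adjusted p-values in limma of 0.0064 (MT1H), 0.00888 (MT3), 0.00927 (ATOX1), 0.0307 (MT1E) and 0.0419 (MT2A), and for MT1H and MT1E 3 STK38 shRNA arrays but no non-target array exceeded background. MTF1, the zinc sensor that switches on metallothionein genes and SLC30A1, had a difference of 0.30 (adjusted p = 0.184, limma), CCS one of 0.22 (adjusted p = 0.215) and ATP7A one of 0.11 (adjusted p = 0.386). Metallothionein transcripts are so alike that their probe sets may cross-hybridise, which leaves single genes among them uncertain. The metallothioneins in the count of 7 may therefore not be separate readings, as the share of 15.2% over all genes assumes. The count of 7 was 5 after either rescaling of the arrays and 5 to 8 with single arrays left out.

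**Figure D2:**
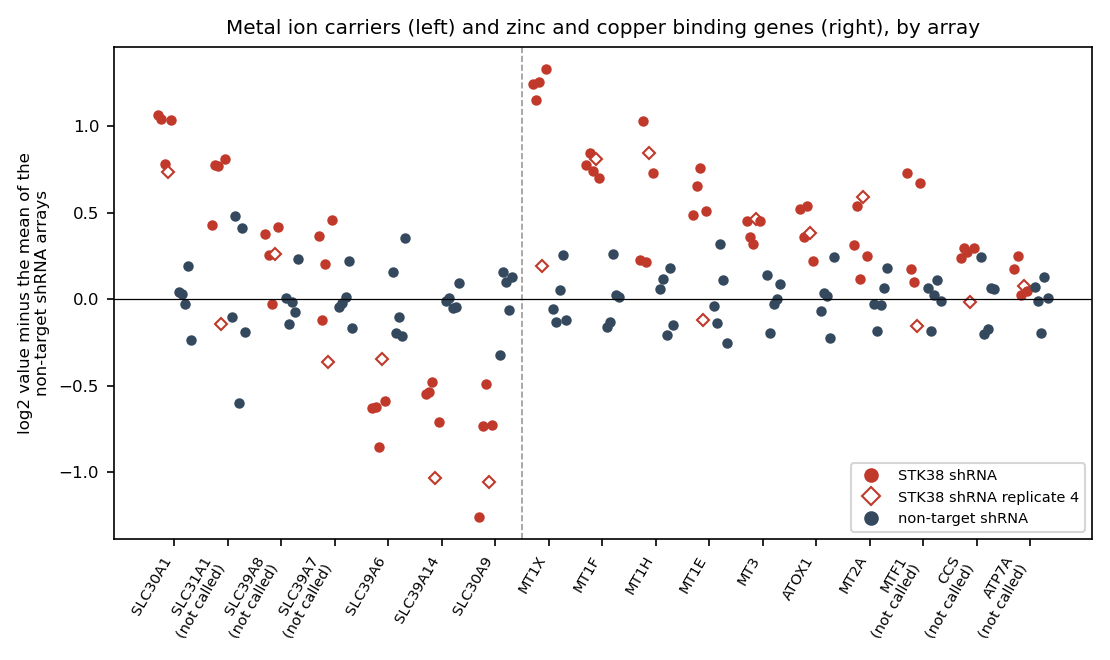
Log2 value on each array minus the mean of the 5 non-target shRNA arrays (vertical axis) for the 7 metal ion carriers (left of the dashed line) and 10 zinc and copper binding or sensing genes (right). Red points are STK38 shRNA arrays, with replicate 4 as an open diamond, and dark points non-target shRNA arrays; SLC30A1 and MT1F stand above zero and SLC39A6, SLC39A14 and SLC30A9 below it on all 5 STK38 shRNA arrays.

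The sequence before each member's start was searched for short motifs because a metal response element is known from the promoters of zinc-regulated genes. RefSeq promoters (GRCh38.p14) were matched for 26 of the 30 members, and the 250 bases before the start were read on both strands. The promoters of the zinc carriers SLC30A1, SLC39A6 and SLC30A9 are shown 5′ to 3′ because these genes changed in opposite directions, with the letters of a metal response element core (TGCACNC or TGCGCNC, either strand) in capitals. They lie on chr1:211579162-211579411 (minus strand), chr18:36129341-36129590 (minus strand) and chr4:41990280-41990529 (plus strand).
SLC30A1: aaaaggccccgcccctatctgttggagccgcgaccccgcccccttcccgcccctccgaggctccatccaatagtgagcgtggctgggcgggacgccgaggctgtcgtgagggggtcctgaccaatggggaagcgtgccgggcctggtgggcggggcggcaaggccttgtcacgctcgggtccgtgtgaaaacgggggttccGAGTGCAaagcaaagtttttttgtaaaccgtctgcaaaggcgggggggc
SLC39A6: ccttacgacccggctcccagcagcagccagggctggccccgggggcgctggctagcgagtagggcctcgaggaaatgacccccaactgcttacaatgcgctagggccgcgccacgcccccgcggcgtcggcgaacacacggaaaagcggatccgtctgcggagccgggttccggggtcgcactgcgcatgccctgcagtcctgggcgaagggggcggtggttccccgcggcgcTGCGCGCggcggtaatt
SLC30A9: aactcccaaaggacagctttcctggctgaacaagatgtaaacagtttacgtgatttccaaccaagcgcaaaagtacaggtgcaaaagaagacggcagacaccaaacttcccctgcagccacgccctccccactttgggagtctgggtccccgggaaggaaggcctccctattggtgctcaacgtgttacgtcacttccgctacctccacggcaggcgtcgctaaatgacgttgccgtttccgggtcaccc
The SLC30A1 sequence holds TGCACNC once, read on the strand opposite to the gene, at bases -49 to -43 from the start, and it was the only one of the 26 members to hold it (3.85%, against 9.73% of 27305 promoters of that length). The SLC39A6 sequence holds TGCGCNC at bases -17 to -11, and the windows of SLC4A2 and SLC43A1 hold it too (3 of 26 members, 11.5%, against 16.9% of all promoters). The SLC30A9 sequence has neither in this window. The E-box CACGTG, the core bound by MYC and its partners, was found in the windows of SLC29A1, SLC43A1, SLC20A1 and SLC26A2 (15.4% of members, against 6.49% of all promoters), of which SLC29A1 fell and the others did not pass the test. The CEBP-ATF response element TGATGNAAN (3.18% of all promoters) and the sterol regulatory element TCACNCCAC (0.875%) were in no member's window. No match overlapped a match of another motif, and a match of this kind is a description of letters, not of binding.

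Amino acid carriers gave 1 call among 5 members. SLC36A1 (probe set 40923_at), which moves small neutral amino acids with protons and is known from the lysosomal membrane, had 3.41, 3.52, 3.66, 3.86 and 3.43 on the STK38 shRNA arrays and 2.82, 2.67, 2.94, 2.80 and 2.73 on the non-target arrays. All STK38 shRNA arrays were higher. It rose 1.72-fold (log2 difference 0.79, SE 0.12, adjusted p = 0.000129, limma). Like 5 other members, SLC36A1 had a second probe set under the level of 2.5 that was above background on no array; its difference was 0.04 (adjusted p = 0.818, limma). SLC7A6, which pairs with the SLC3A2 protein to exchange basic for neutral amino acids, averaged 3.83 ± 0.43 in STK38 shRNA arrays and 3.59 ± 0.24 in non-target arrays (SD, n = 5 each; limma adjusted p = 0.421), with STK38 shRNA replicate 4 at 3.11 and the others of its group at 3.81 to 4.17. SLC43A1, a carrier of large neutral amino acids, SLC38A10, of the glutamine carrier family, and SLC1A2, a glutamate carrier best known from glia, had differences of -0.29, -0.28 and -0.09, none past the test. SLC38A10 and SLC1A2 were among the members with another probe set above background on no array (means over all arrays 1.95 and 1.59).

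The carriers that the rule leaves out by name gave other values. Of those 7 genes, SLC7A1, SLC7A5, SLC1A5, SLC3A2, SLC1A4 and SLC19A1 fell, by 1.39, 1.22, 1.09, 1.02, 0.77 and 0.52 on the log2 scale at their brightest probe sets. SLC2A3, above background on 4 STK38 shRNA arrays and none of the non-target ones, was 1.62-fold higher with the non-target values raised to background. SLC1A4 had another probe set of similar brightness, with a mean over all arrays of 3.14 against 3.28 for the brightest. There the groups overlapped, and the difference of -0.21 did not pass the test (limma adjusted p = 0.165). Of all genes tested, at the brightest probe set of each, 15.8% were called lower and 15.2% higher. Among 16 mitochondrial SLC25A probe sets with a mean of 2.5 or more, 5 rose and 4 fell. Of all probe sets with such a mean, 18.3% were called higher and 21.0% lower. The 5 rises count SLC25A1 at both of its probe sets of that level, so they stand for fewer genes than probe sets.

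Vitamin carriers had one of the largest rises among the members. SLC5A6 (probe set 35256_at), the sodium-dependent carrier of biotin and pantothenate, had 5.05, 5.03, 5.11, 4.52 and 4.76 on the STK38 shRNA arrays and 4.41, 3.86, 3.95, 4.04 and 4.18 on the non-target arrays. The lowest STK38 shRNA array, replicate 4, was still above the highest non-target array. It rose 1.75-fold (log2 difference 0.81, SE 0.15, adjusted p = 0.000679, limma). SLC23A2, a carrier of ascorbate, had 2.52, 2.39, 2.5, 1.81 and 2.71 with the STK38 shRNA and 2.76, 2.67, 2.78, 2.66 and 2.5 with the non-target shRNA. It was above background on 4 arrays of each group and did not pass the test (difference -0.29, limma adjusted p = 0.158).

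SLC29A1 (probe set 33901_at), the equilibrative nucleoside carrier that also takes up nucleoside drugs, was the nucleoside carrier among the members. It had 5.23, 5.17, 5.28, 4.24 and 5.10 on the STK38 shRNA arrays and 5.65, 5.27, 5.47, 5.61 and 5.51 on the non-target arrays. The groups met only at 5.28 and 5.27, and replicate 4 lay far below its group. The fall was 1.41-fold (log2 difference -0.50, SE 0.18, limma adjusted p = 0.0446), and without replicate 4 the difference was -0.31 (adjusted p = 0.0285, limma). This call was lost in 9 of 17 alternatives, with adjusted p-values between 0.0162 and 0.102 over them.

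Carriers of nucleotide sugars and sugar phosphates feed glycosylation in the Golgi and the endoplasmic reticulum. Of 6 members 1 fell. SLC35A1 (probe set 37895_at), which brings CMP-sialic acid into the Golgi, had 5.00, 5.09, 5.06, 4.77 and 5.20 with the STK38 shRNA and 5.49, 5.75, 5.35, 5.63 and 5.40 with the non-target shRNA. The groups did not overlap, and it fell 1.41-fold (log2 difference -0.50, SE 0.12, limma adjusted p = 0.00504). SLC37A4, the glucose-6-phosphate carrier of the endoplasmic reticulum, had 3.80, 3.82, 3.69, 2.47 and 3.86 on the STK38 shRNA arrays and 4.13, 3.97, 4.00, 3.98 and 4.23 on the non-target arrays. Its groups did not overlap either, and the two-sided exact permutation p was 0.00794, the smallest that 5 against 5 arrays allow, yet limma did not call it (adjusted p = 0.093); without replicate 4 the difference of -0.53 became -0.27 (adjusted p = 0.0565). The carriers of UDP-N-acetylglucosamine (SLC35A3, difference 0.25), of UDP-glucuronic acid (SLC35D1, 0.24) and of UDP-galactose (SLC35A2, 0.16), and SLC35B1, which exchanges ATP for ADP across the endoplasmic reticulum membrane (-0.26), did not pass the test.

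Among carriers of bicarbonate and chloride, SLC4A7 (probe set 34936_at), which brings bicarbonate into the cell with sodium, was called lower. It had 3.89, 4.01, 3.95, 3.17 and 4.12 on the STK38 shRNA arrays and 4.06, 4.51, 4.38, 4.50 and 4.11 on the non-target arrays. The highest STK38 shRNA array overlapped the lowest non-target arrays. The fall was 1.40-fold (log2 difference -0.49, SE 0.18, limma adjusted p = 0.0485), and the difference was -0.32 without replicate 4 (adjusted p = 0.0475). This call was lost in 9 of 17 alternatives, with adjusted p-values between 0.0128 and 0.116 over them. SLC4A2, which exchanges chloride for bicarbonate, averaged 5.16 ± 0.16 in STK38 shRNA arrays and 5.01 ± 0.14 in non-target arrays (SD, n = 5 each), a difference of 0.15 with a 95% interval of -0.10 to 0.40 (adjusted p = 0.402, limma).

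**Figure D3:**
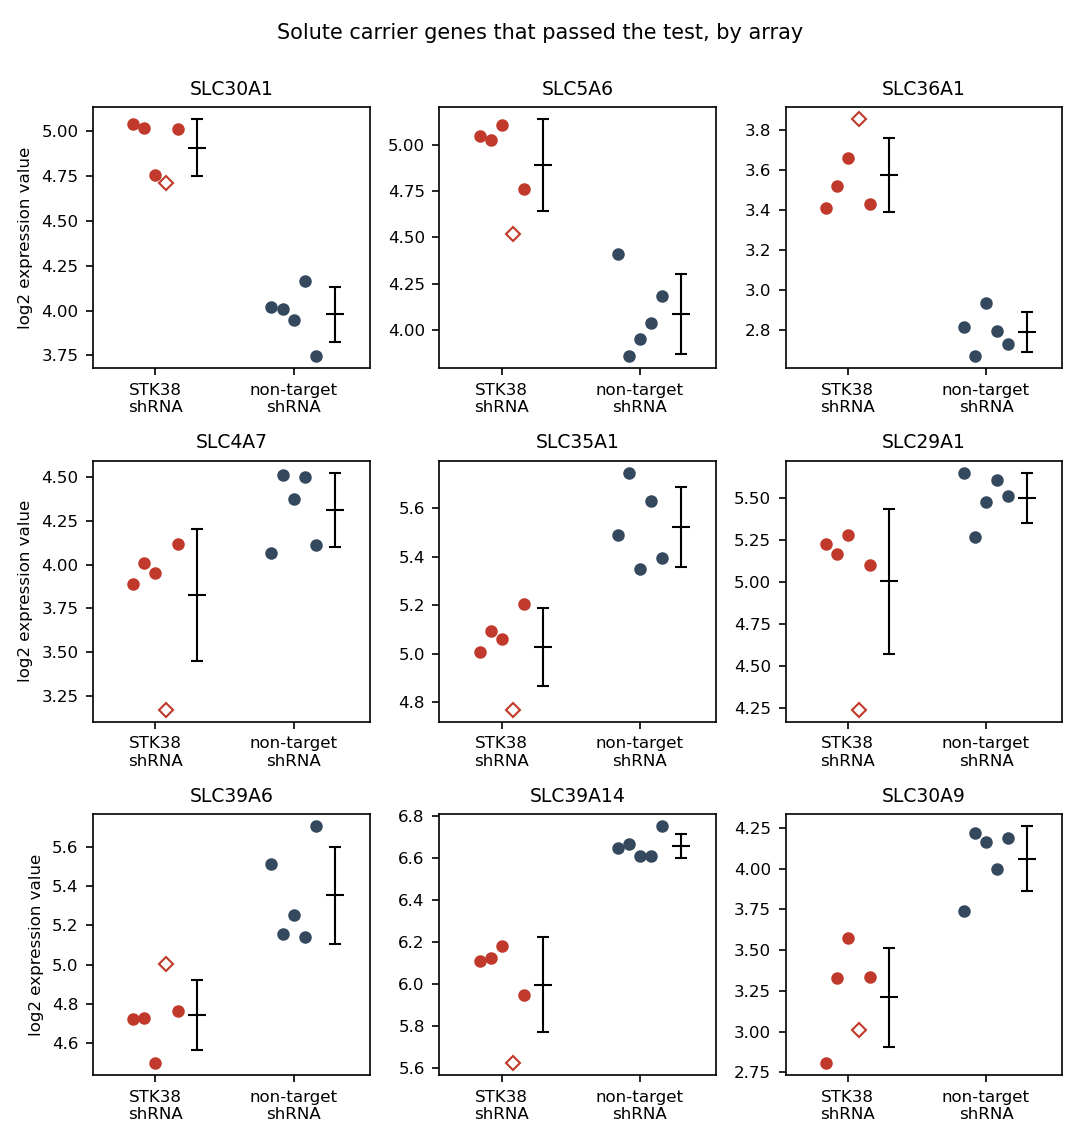
Log2 expression value (vertical axis, its own range in each panel) on each array for the 9 solute carrier genes that passed the test, with STK38 shRNA arrays in red on the left and non-target shRNA arrays in dark on the right. Bars give the mean and SD of 5 arrays, and the open diamond is STK38 shRNA replicate 4, which is the lowest array for SLC4A7, SLC35A1, SLC29A1 and SLC39A14.

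The phosphate and sulfate carriers did not pass the test with all arrays. SLC20A2, a sodium-phosphate importer, had 3.68, 3.29, 3.40, 3.27 and 3.33 on the STK38 shRNA arrays and 3.24, 2.97, 3.17, 3.16 and 2.80 on the non-target arrays. Its groups did not overlap, and its difference was 0.33 (limma adjusted p = 0.0646; exact permutation p = 0.00794, two-sided). Its relative SLC20A1 had a difference of 0.21 (adjusted p = 0.347, limma) and SLC26A2, a sulfate carrier, one of 0.21 (adjusted p = 0.128, limma). The acetyl-CoA carrier SLC33A1 had a difference of 0.02 with a 95% interval of -0.41 to 0.45, SLC10A3, of the bile acid carrier family, one of -0.08 (-0.48 to 0.33), SLC61A1, also known as MFSD5, one of 0.22 (-0.07 to 0.52) and SLC75A1, also known as MFSD10, one of 0.12 (-0.48 to 0.72) so that each of these intervals covers both directions.

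Without STK38 shRNA replicate 4, 17 of 30 members were called, beside 37.4% of all probe sets tested and 47.5% of those with a mean of 2.5 or more. Of these, 10 were higher and 7 lower, beside 20.5% and 16.8% of all probe sets tested and 26.0% and 21.4% of those with a mean of 2.5 or more. The 9 members called with every array kept their call and direction. The members called only without that array were SLC31A1, SLC75A1, SLC7A6, SLC20A2, SLC20A1, SLC35D1 and SLC26A2 (higher) and SLC35B1 (lower). SLC75A1 shows how much that array weighed: it had 4.18, 4.65, 4.21, 2.71 and 4.25 on the STK38 shRNA arrays and 3.53, 4.22, 3.99, 3.94 and 3.73 on the non-target arrays, and its difference was 0.44 without replicate 4 (adjusted p = 0.0223, limma) in place of 0.12.

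**Figure D4:**
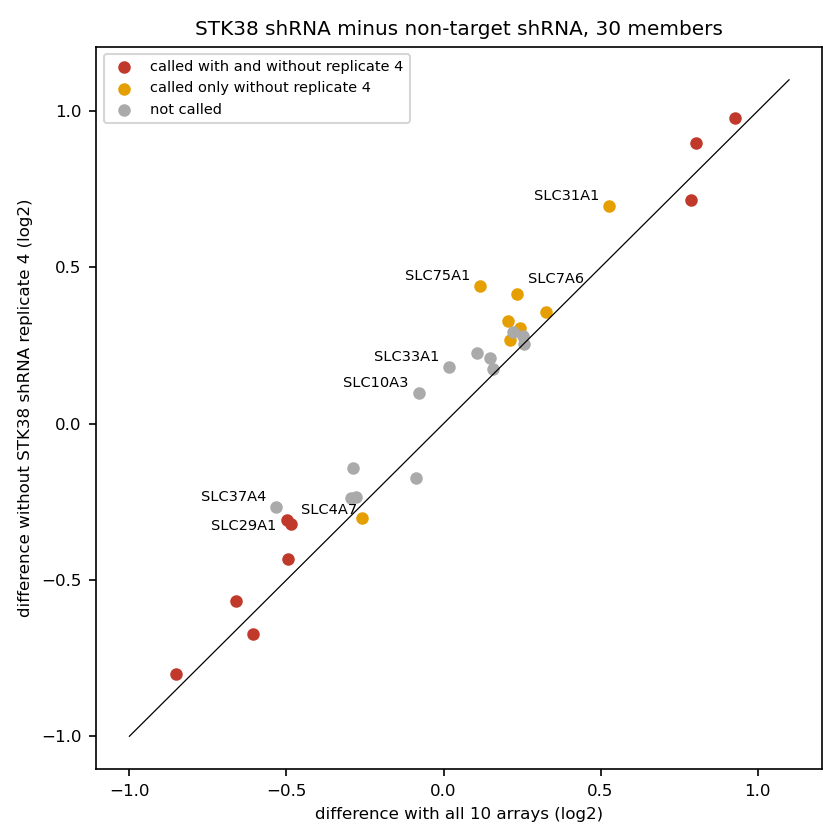
Difference between STK38 shRNA and non-target shRNA arrays (log2) for each of the 30 members with all 10 arrays (horizontal axis) and without STK38 shRNA replicate 4 (vertical axis); the line marks equal values. Red points were called both ways (9 genes), orange points only without that array (8 genes) and grey points neither way, and the named genes moved by over 0.15.

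The other 120 SLC probe sets that met the rule on names were under the level of 2.5, and 105 of them were above background on no array. None of the genes classed as sugar carriers (10 genes), monocarboxylate carriers (3 genes) and peptide carriers (2 genes) with a probe set on the list reached that level. These classes follow family number and not substrate. SLC5A5 and SLC5A12 are among the 10 by family number and need not carry sugar. Of the 31 of these 120 probe sets that were bright enough to be tested, 4 were called higher, 12.9%, beside 14.1% of all probe sets tested. Most of all probe sets tested were brighter than these 31. A mean of 2.5 or more was reached by 5153 of 7535, and 18.3% of those were called higher. Tested probe sets under 2.5 were therefore called higher less often than 14.1%, which is too high a share to read the 12.9% against. The 4 were SLC11A2, SLC67A1 (limma adjusted p = 0.0464), SLC67A2 and SLC11A1, the last pair above background on no array. SLC11A2, an importer of iron, had 3 STK38 shRNA arrays and no non-target array over background. It was 1.13-fold higher with the non-target values raised to background (limma adjusted p = 0.0312). The SLC11A1 call came from a single probe set, and its others, too dim to be tested, had differences of -0.09 and -0.01.

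Proteins that work beside solute carriers were counted at 1 probe set per gene, where 15.2% of all genes tested were called higher and 15.8% lower. Of 6 sodium and calcium pump genes tested, ATP2C1 rose by a log2 difference of 0.68, and ATP1B3, a subunit of the sodium pump (-0.32), and ATP2B1 (-0.42) fell; ATP2B4 was called higher but was above background on no array. Of 6 carrier partners and scaffolds, 1 fell, VDAC1, the pore of the outer mitochondrial membrane, by 1.51 on the log2 scale, and BSG, the chaperone of monocarboxylate carriers, had a difference of 0.06 (limma adjusted p = 0.769). The list for the WNK-SPAK pathway, which controls cation-chloride carriers, also held genes beside the kinases of that pathway. Of its 4 genes tested, the kinase STK39 fell by 1.39 (adjusted p = 7.76e-06, limma). NEDD4, not one of those kinases, fell by 0.47. OXSR1 (-0.21, adjusted p = 0.451, limma) and NEDD4L (-0.14, adjusted p = 0.251, limma) did not pass the test. Of 19 ABC transporter genes, which pump with ATP, ABCC5 (0.61) and ABCC10 rose and ABCG1, above background on no array, was called lower. ABCC10 had 4 STK38 shRNA arrays and no non-target array over background, and was 1.08-fold higher with the non-target values raised to background.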

How the data were processed

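Total RNA from 5 STK38 shRNA and 5 non-target shRNA samples was labelled with biotin and hybridised to 1-colour HG-U95Av2 arrays, per the labels. The authors deposited 1 log2 expression value per probe set, made with GCRMA and affy per the submitters' processing notes, which give no version; the log2 scale was read from that tool and from the range of the values (0.35 to 12.65). GCRMA draws dim probe sets towards a floor, which shrinks their differences. The authors' normalization was kept.

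Controls (67 probe sets) were removed, gene symbols came from the platform annotation and were brought up to date by Entrez identifier, and probe sets with a mean under the 40th percentile (1.93) were left out. The other 7535 were fitted together with limma 3.58.1 in R 4.3.3 (lmFit, eBayes with trend), and p-values were adjusted over all of them by Benjamini-Hochberg. Folds are ratios of linear values, and the number of arrays limits the precision. Where a fold is given with the non-target values raised to background, STK38 shRNA values under background were kept as measured. Such a fold is therefore not a strict lower bound. Simulated data had 200 of the 7535 probe sets changed, with independent normal noise of each probe set's own spread. There limma recovered 56.5% of log2 changes of 0.5 and 93.8% of 1, with 5.5% of calls false. In the real data 29.9% of probe sets were called and STK38 shRNA replicate 4 stood apart. Those rates may therefore not hold for the calls reported. The members and lists were chosen with earlier results of these data known. All members are named; SLC5A6 and SLC26A2 were classed by substrate and not by family number, and the background level, the motifs and the promoters printed were chosen after values were seen. Of the pathway lists (solute carriers left out by name, pumps, carrier partners, WNK-SPAK, ABC transporters, zinc and copper binding) up to 4 called genes were to be named. All 10 tested zinc and copper genes and all 7 carriers left out by name were added after their values were seen. So were BSG, OXSR1, NEDD4L and the called carriers under the level. Alternatives covered array scaling, the filter, the variance model, array weights, the threshold, the member level, each array left out in turn and a replicate block. Plots used matplotlib 3.10.9.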

Additional observations from a re-analysis of the deposited data

Results flagged for a closer look

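In 60 groups of 5 arrays (30 members, both conditions), 8 arrays lay so far from the others of their group that the gap exceeded 0.71 of the group's range, where chance gives about 1 in 20 groups. STK38 shRNA replicate 4 accounted for 6 of them. It had 2.47 for SLC37A4 where the others of its group had 3.69 to 3.86, 4.24 for SLC29A1 (others 5.10 to 5.28), 2.71 for SLC75A1 (4.18 to 4.65), 3.17 for SLC4A7 (3.89 to 4.12), 4.52 for SLC20A1 (5.05 to 5.19) and 3.62 for SLC35D1 (3.88 to 3.97). In each case it was the low array. Among the non-target arrays, replicate 1 had 3.08 for SLC1A2 (others 2.63 to 2.74) and replicate 5 had 3.44 for SLC35B1 (others 3.02 to 3.13).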

How the results depend on the processing

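Of the 9 members called, SLC30A1, SLC5A6, SLC36A1, SLC30A9, SLC39A14, SLC39A6 and SLC35A1 kept direction and call in all 17 alternatives, while SLC29A1 and SLC4A7 lost the call in 9 each; 10 of the 21 members not called passed in at least 1. The count of members called higher was 7 with quantile normalization, 5 with the filter at the 60th percentile, which tested 28 members, and 10 with array weights, against 3; calls higher over all probe sets moved too, to 16.1%, 19.8% and 21.5% in these fits, against 14.1%. With single arrays left out the count of members called higher ran from 3 to 10 (the 10 without STK38 shRNA replicate 4); the cause was not tested. The count called lower ran from 4 to 7, the members' median from 0.04 to 0.20 and all calls from 1947 to 2817 with single arrays left out. Over all probe sets, a threshold of 0.01 in place of 0.05 gave 1494 calls in place of 2256. Sign turned for 3 members near zero: SLC33A1 was -0.024 with quantile normalization, SLC10A3 was 0.042 with array weights, and with single arrays left out SLC33A1 ran from -0.10 to 0.18, SLC10A3 from -0.17 to 0.10 and SLC75A1 from -0.045 to 0.44. Same-numbered arrays did not deviate together (correlations -0.21 to 0.19); with the replicate block 4 members were called higher and 4 lower, of 2159 calls. GCRMA's floor limits what can be seen of dim probe sets.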
